A study of Rattus norvegicus with 35 samples.

Results

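The genes described here are 9 transcription factors that govern heart muscle genes (Gata4, Gata6, Mef2a, Mef2c, Mef2d, Nkx2-5, Hand2, Srf and Myocd) and Rcan1, the feedback inhibitor of the phosphatase calcineurin. Their probes were found by gene symbol in the annotation of the array, a step that used no measured value. The genes themselves were chosen with earlier results of these data known. Of the 10 genes, 8 had a probe, each of them 1 probe, among 13337 genes named on the array. Mef2a and Mef2c had none in that annotation and are not analysed here. The tissue was the left ventricle of male Wistar rats whose abdominal aorta had been ligated, an operation that loads the heart with pressure, or that had had a sham operation. Hearts were taken on day 1, day 6 or day 42 after the operation. Each day had 6 ligated and 6 sham animals, except for 5 ligated animals on day 6, which makes 35 arrays, 1 for each animal. No drug and no genetic change was given for any group, and the age of the animals is not given in the sources used here. The question of each comparison was whether a gene's RNA level differed between ligated and sham hearts on the same day.

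In the adult heart these factors act as a network. GATA4 and GATA6 are zinc finger factors, NKX2-5 is a homeodomain factor, HAND2 is a basic helix-loop-helix factor and MEF2D is a MADS box factor, and they bind together at promoters of contractile and natriuretic peptide genes. SRF is a MADS box factor that binds CArG boxes. Myocardin, the product of Myocd, is its coactivator in heart and smooth muscle. Calcineurin removes phosphate from NFAT factors, which then enter the nucleus and act with GATA4. Rcan1 is known as an NFAT target, so its RNA is often read as a trace of calcineurin activity.

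The sequences upstream of Rcan1 and Srf are shown because both genes are known to carry sites for the very pathway they belong to. They are the 250 bases before the gene start that RefSeq lists on the GRCr8 build, and both starts lie inside the annotated gene. The start that the array probe reads was not examined. The Rcan1 window is chr11:45118237-45118486 on the minus strand, with capitals on matches to the NFAT core GGAAA on either strand. The Srf window is chr9:21923826-21924075 on the plus strand, with capitals on matches to the CArG box.
Rcan1: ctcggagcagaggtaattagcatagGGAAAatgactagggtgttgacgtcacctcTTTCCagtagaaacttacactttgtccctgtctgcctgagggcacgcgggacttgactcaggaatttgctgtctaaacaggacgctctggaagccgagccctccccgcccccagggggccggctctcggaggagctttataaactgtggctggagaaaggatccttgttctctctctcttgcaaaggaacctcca
Srf: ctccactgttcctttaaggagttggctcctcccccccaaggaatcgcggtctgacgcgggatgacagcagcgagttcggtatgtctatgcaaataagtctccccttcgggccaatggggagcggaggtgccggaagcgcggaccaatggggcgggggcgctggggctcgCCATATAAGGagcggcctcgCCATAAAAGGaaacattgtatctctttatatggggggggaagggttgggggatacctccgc

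The Rcan1 window held 2 NFAT cores, 225 to 221 and 195 to 191 bases before the start, in opposite orientations. That motif is short, and 56.9% of 33469 promoters of the same length held it. The Srf window held 2 CArG boxes, 81 to 72 and 61 to 52 bases before the start, and 1.5% of promoters held at least 1. Of the 7 promoters of these genes in the table (those of Rcan1, Srf, Nkx2-5, Hand2, Gata6, Mef2d and Mef2a), 4 held the NFAT core and 1 held a CArG box. The motif GATA was in 3 of the 7, against 55.9% of all promoters. AAGTG, the core of NKX2-5 sites, was in 2 of the 7, against 40.6%. The E-box CANNTG was in 2, against 65.5%, and the MEF2 box in 1, that of Mef2a, against 0.523%. All motifs were searched on both strands. The second CArG box of Srf overlaps an NFAT core match. These are matches of letters only, and none was tested for binding.

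Levels below are log2 intensities, normalised within a day, so a difference of 1 is a doubling. Each probe was summarised over a median of 30 to 42 beads per array, and 32.8 to 40.3% of the 22523 probes were detected on an array. The labelled tissue held its markers: all 7 cardiomyocyte markers were detected on every day. None of them had an adjusted p under 0.05 by limma between ligated and sham hearts on any day. With the processed values that the authors deposited, 2 of the 7 were called higher on day 42, with a median of 0.21. The raw log2 means of Tnnt2, Myh6, Tnni3 and Myl3 on day 42 were 16.08, 16.02, 15.9 and 15.88. Whether intensities that high could still rise was not tested. Arrays of a day shared 1 BeadChip. On days 1 and 42 all ligated samples lay at positions A to F and all sham samples at G to L, so position and operation cannot be told apart there, while on day 6 each operation lay in both position sets. The brightness of the arrays (the 75th percentile of raw intensity) also moved with the operation on day 42, at 206 ± 36.9 in ligated and 293 ± 30.5 in sham samples (SD, n = 6 each, two-sided exact permutation p = 0.00433). The corresponding means were 253.8 and 219.6 on day 1 (exact p = 0.104) and 279.8 and 268 on day 6 (exact p = 0.762). The share of probes detected was 36.87% in ligated and 34.67% in sham samples on day 1 (exact permutation p = 0.0325). It was 37.6% and 36.92% on day 6 (exact p = 0.528), and 34.47% and 37.47% on day 42 (exact p = 0.0108).

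Rcan1 and Myocd were higher in ligated hearts on days 1 and 42, and Gata6 was lower on day 1, while Gata4, Nkx2-5, Srf, Hand2 and Mef2d passed the test on no day. A call is an adjusted p under 0.05 by limma, with Benjamini-Hochberg adjustment over all probes tested that day. On day 1, 3 of the 7 genes tested were called, 2 higher and 1 lower, against 28.8% of all probes. The background shares by direction were 13.1% higher and 15.6% lower. On day 42, 2 of 8 were called, both higher, against 15.0% of all probes, 7.30% higher and 7.69% lower. That day depended on the scaling: under median scaling 0 of 8 genes were called higher and 3 lower, namely Hand2 (-1.04, adjusted p = 0.00654), Nkx2-5 (-0.82, adjusted p = 0.00973) and Mef2d (-0.53, adjusted p = 0.0372), while the median of all probes stood at -0.47. That setting called 4710 of 8351 probes, only 1.72% of them higher. With array brightness as a covariate 0 of 8 were called by limma on day 42. That setting called only 3 of 8351 probes, so the 0 says nothing particular about these genes. On day 6, 0 of 8 were called by limma, against 11.3% of all probes, 5.39% higher and 5.89% lower. An unadjusted limma p under 0.05 was reached by 0 of 8, and the share of all probes at that threshold is not given here. None of the 8 genes had groups that did not overlap on day 6, against 8.13% of all probes. With so few genes, nothing is read from these counts. The median size of the log2 difference, whichever its sign, was 0.318 over the genes and 0.24 over all probes on day 1. It was 0.18 against 0.218 on day 6, and 0.299 against 0.219 on day 42.

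**Figure D1:**
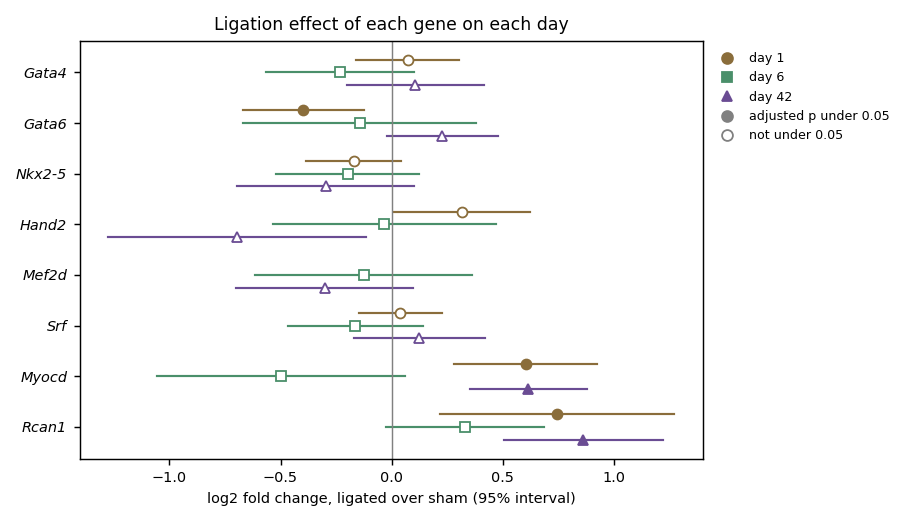
The log2 difference between ligated and sham hearts (horizontal axis) with its 95% interval is drawn for each gene on days 1, 6 and 42, and filled symbols have an adjusted p under 0.05. Rcan1 and Myocd lie to the right on days 1 and 42, Gata6 lies to the left on day 1, and Mef2d has no day 1 symbol because it was detected on too few arrays to be tested.

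Rcan1, whose product binds and restrains calcineurin, had the largest called difference among the genes. On day 1 its level in the 6 ligated hearts ran from 11.57 through a median of 12.41 to 13.42, and in the 6 sham hearts from 11.42 through 11.77 to 11.89. Of the ligated hearts, 5 lay above the highest sham heart and 1 lay within the sham range, so the groups overlapped. The difference was 0.74 ± 0.25 (SE, 95% interval 0.22 to 1.27), a fold of 1.68, with an adjusted p of 0.0365. The ligated hearts were spread more widely than the sham hearts, with SDs of 0.66 and 0.18. The call was not firm: over 23 other settings the difference was positive in all and passed in 13, with adjusted p from 0.00789 to 0.0933. It was lost on leaving out ligated replicate 4, 5 or 6 or any 1 of the sham replicates, and without ligated replicate 6, the highest heart, the difference was 0.55 (adjusted p = 0.0526).

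On day 42 Rcan1 ran from 13.04 through 13.37 to 13.82 in ligated hearts and from 12.16 through 12.42 to 13.12 in sham hearts. Again 5 of 6 ligated hearts lay above the highest sham heart, and all 6 lay above the sham median. The difference was 0.86 ± 0.17 (SE, 95% interval 0.51 to 1.22), a fold of 1.82, with an adjusted p of 0.00658. Only 2.6% of the 8351 probes tested that day had a larger difference of either sign. It passed in 21 of 23 other settings and failed in the 2 that treat array brightness otherwise, with 0.43 (adjusted p = 0.0841) under median scaling and 1.197 (adjusted p = 0.157) with brightness as a covariate. Brightness differed between the groups on that day, and its part in the result was not tested further.

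On day 6 the 5 ligated hearts had Rcan1 levels of 13.60, 12.64, 13.58, 13.31 and 13.13, and the 6 sham hearts ran from 12.78 through 12.87 to 13.11. In this group 4 ligated hearts lay above every sham heart and ligated replicate 2 lay below every sham heart. The difference was 0.33 ± 0.16 (SE, 95% interval -0.03 to 0.68) with an adjusted p of 0.209. Without that replicate it was 0.48 with an adjusted p of 0.0382. The effects of ligation on Rcan1 did not pass a test of difference between days: from day 6 to day 42 the difference was 0.53 ± 0.30 (adjusted p = 0.264), from day 1 to day 6 it was -0.42 ± 0.30 (adjusted p = 0.580), and from day 1 to day 42 it was 0.12 ± 0.29 (adjusted p = 0.818). The 95% interval of the last ran from -0.47 to 0.71, which leaves room for a sizeable difference in either direction.

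**Figure D2:**
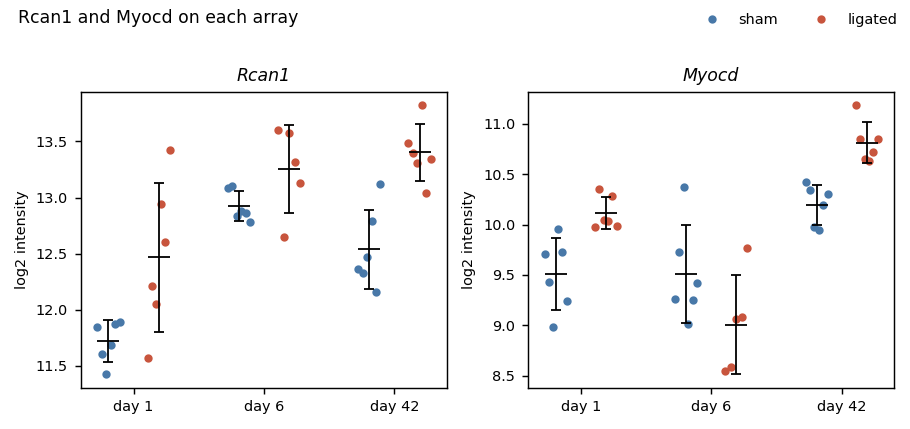
Each point is the log2 intensity (vertical axis) of Rcan1 or Myocd on 1 array, by day and operation, with the mean and SD as bars. The 6 ligated hearts lie above all 6 sham hearts for Myocd on days 1 and 42, and 5 of 6 do for Rcan1 on those days.

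Myocd, which encodes the SRF coactivator myocardin, separated the groups completely on days 1 and 42. On day 1 its level ran from 9.98 through 10.04 to 10.35 in ligated hearts and from 8.99 through 9.57 to 9.95 in sham hearts, so all 6 ligated hearts lay above all 6 sham hearts. It was the only 1 of the genes whose groups did not overlap that day, against 10.1% of all probes. The difference was 0.60 ± 0.15 (SE, 95% interval 0.28 to 0.93), a fold of 1.52, with an adjusted p of 0.0106, and it passed in all 23 other settings. On day 42 the levels ran from 10.63 through 10.79 to 11.19 in ligated and from 9.95 through 10.25 to 10.42 in sham hearts, again with no overlap, as for 5.83% of all probes. The difference was 0.62 ± 0.12 (SE, 95% interval 0.35 to 0.88), a fold of 1.53, with an adjusted p of 0.00729. It passed in 21 of 23 other settings. Median scaling, which moved the median of all probes to -0.47 that day, left 0.11 (adjusted p = 0.627), still above that median, and brightness as a covariate gave 0.76 (adjusted p = 0.232).

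On day 6 Myocd pointed the other way without passing the test. The 5 ligated hearts had 8.55, 8.58, 9.06, 9.08 and 9.77, and the 6 sham hearts ran from 9.01 through 9.34 to 10.37. The 2 lowest ligated hearts lay below every sham heart. The difference was -0.50 ± 0.26 (SE, 95% interval -1.06 to 0.06) with an adjusted p of 0.225. It sat in 1 part of the BeadChip: within positions A to F the means were 8.57 (n = 2) and 9.79 (n = 3) for ligated and sham, and within positions G to L they were 9.30 and 9.23 (n = 3 each). The 2 ligated arrays at A to F were also the brightest of the day, at 374.8 and 364.6, against 184.7 to 320.4 on the other arrays. Over all 35 arrays, after the mean of each group was removed, Myocd correlated with array brightness at r = -0.499, given as a description. The part of position and brightness in the day 6 value was not tested further.

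The effect of ligation on Myocd differed between days. From day 1 to day 6 it dropped by 1.10 ± 0.27 (SE) with an adjusted p of 0.0430, against 0.812% of 8986 probes called in that comparison. From day 6 to day 42 it rose by 1.11 ± 0.27 with an adjusted p of 0.0134, against 7.52% of probes. From day 1 to day 42 it was 0.01 ± 0.27 (95% interval -0.53 to 0.56). Both called differences use the day 6 arrays. With only the day 6 arrays at positions G to L they were -0.53 (adjusted p = 0.202) and 0.54 (adjusted p = 0.321), and with only those at A to F they were -1.82 (adjusted p = 0.00114) and 1.84 (adjusted p = 0.000198). The first passed in 23 of 47 other settings and the second in 44 of 47, and neither changed direction in any of them.

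Smooth muscle cells also express Myocd, so their markers are given beside it. In bulk tissue a larger number of cells of a type and more RNA in each cell cannot be told apart. Of 6 smooth muscle markers, 2 were tested on each day: Tagln, an actin-binding protein, and Smtn, a cytoskeletal protein. Both are also counted among the SRF targets below, so they are not markers of cell number independent of SRF and its coactivator. On day 1 Tagln rose by 0.58 (adjusted p = 0.0118) and Smtn fell by 0.74 (adjusted p = 0.0181). On day 42, when Myocd was 1.53-fold higher, neither marker was called. On day 6 Tagln rose by 1.18 (adjusted p = 0.0146) while Myocd was not called. Smtn pointed the other way that day, at -0.52, and missed the threshold (adjusted p = 0.0511). The summed level of both markers, on the linear scale, ran from 1065 to 1835 in ligated and from 1491 to 1842 in sham hearts on day 1, and from 1577 to 2228 and 1591 to 2554 on day 42. On day 6 the sums overlapped too, from 1827 to 2459 in ligated and from 1570 to 2337 in sham hearts. Cnn1 and Lmod1 were detected on no array of day 1, and Acta2 and Myh11, which define the cell type, had no probe here.

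Srf itself, the DNA-binding partner, passed the test on no day. Its level ran from 11.12 through 11.27 to 11.33 in ligated and from 11.03 through 11.19 to 11.44 in sham hearts on day 1. On day 6 the ligated hearts had 11.90, 11.32, 12.04, 12.10 and 11.62, and the sham hearts ran from 11.87 through 11.95 to 12.03. On day 42 it ran from 11.25 through 11.53 to 11.76 in ligated and from 10.93 through 11.51 to 11.69 in sham hearts. The groups overlapped each time. The differences were 0.04 ± 0.09, -0.16 ± 0.14 and 0.13 ± 0.14 (SE), with adjusted p of 0.763, 0.476 and 0.552. The widest of their 95% intervals, that of day 6, ran from -0.47 to 0.14.

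**Figure D3:**
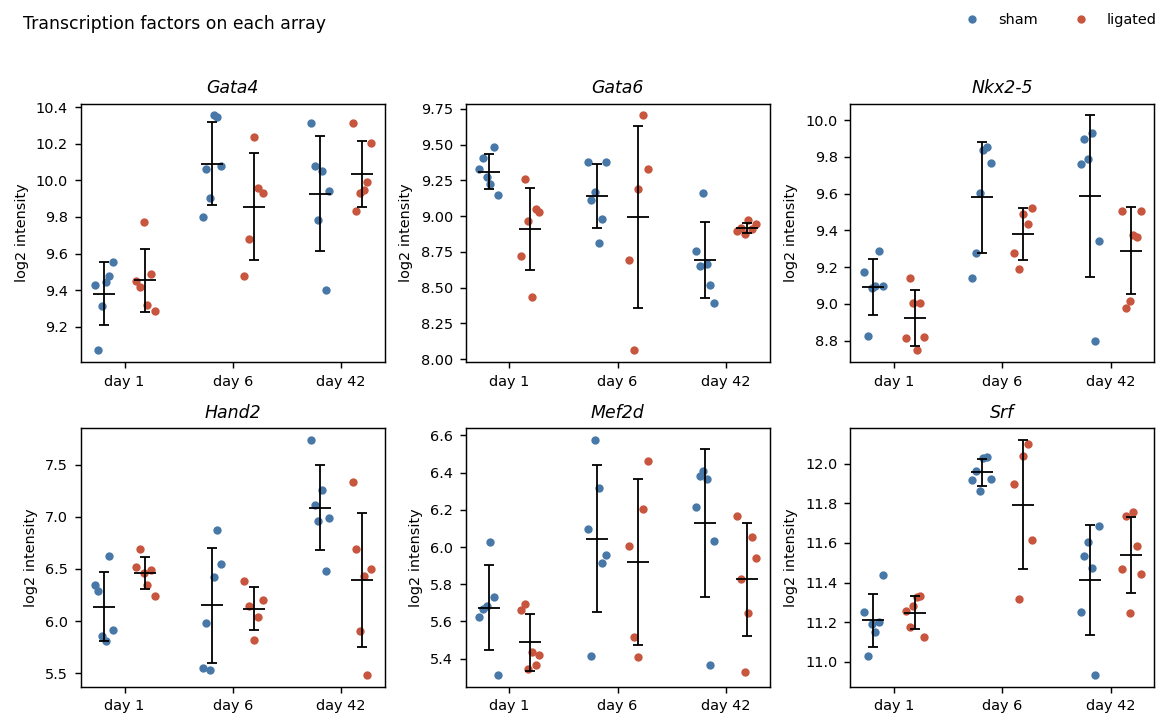
Each point is the log2 intensity (vertical axis) of Gata4, Gata6, Nkx2-5, Hand2, Mef2d or Srf on 1 array, by day and operation, with the mean and SD as bars. The groups overlap in every panel and on every day, and 5 of 6 ligated hearts lie below all sham hearts for Gata6 on day 1.

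Gata6, a GATA factor of heart muscle that also acts in vascular cells, was the only 1 of the genes called lower. On day 1 its level ran from 8.44 through 8.999 to 9.26 in ligated and from 9.15 through 9.30 to 9.48 in sham hearts, and 5 of 6 ligated hearts lay below every sham heart. The difference was -0.40 ± 0.13 (SE, 95% interval -0.67 to -0.12) with an adjusted p of 0.0321. It stayed negative in all 23 other settings and passed in 12 of them. The call was lost on leaving out ligated replicate 1, 3 or 4 or sham replicate 1, 2, 3 or 5, with values from -0.41 to -0.30. Median scaling gave -0.15 (adjusted p = 0.364) and brightness as a covariate gave -0.23 (adjusted p = 0.185). After removal of group means, Gata6 had the strongest correlation with array brightness of the 8 genes over the 35 arrays (r = -0.617), and the part of brightness in the day 1 difference was not tested further.

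On day 6 the ligated hearts had Gata6 levels of 8.69, 8.06, 9.19, 9.70 and 9.33, which reached both below and above the sham range of 8.81 to 9.38. The difference was -0.14 ± 0.24 (SE, adjusted p = 0.731). As for Myocd, the 2 low hearts were those at positions A to F, where the means were 8.38 in ligated and 9.22 in sham hearts, against 9.41 and 9.06 at positions G to L. On day 42 the ligated hearts lay close together, from 8.87 through 8.91 to 8.97, and the sham hearts ran from 8.39 through 8.66 to 9.16. All 6 ligated hearts lay above the sham median, with a difference of 0.23 ± 0.12 (SE, adjusted p = 0.187). The effects on days 1 and 42 thus had opposite signs, but the test of their difference missed the threshold (0.63 ± 0.24, adjusted p = 0.0897).

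Gata4, the GATA factor best known for driving hypertrophic genes, was called on no day. It ran from 9.29 through 9.43 to 9.77 in ligated and from 9.07 through 9.44 to 9.56 in sham hearts on day 1. On day 6 the ligated values were 9.48, 9.68, 10.24, 9.96 and 9.93 and the sham hearts ran from 9.80 through 10.07 to 10.36, with 2 ligated hearts below every sham heart. On day 42 it ran from 9.83 through 9.97 to 10.31 and from 9.40 through 9.996 to 10.31. The differences were 0.07 ± 0.11, -0.23 ± 0.15 and 0.11 ± 0.14 (SE), with adjusted p of 0.640, 0.341 and 0.632. Their 95% intervals together reached from -0.57 to 0.42, so changes larger than these bounds lie outside the intervals.

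Nkx2-5, the homeodomain factor that marks heart muscle, gave a negative difference on each day, and none passed the test. Its values ran from 8.75 through 8.91 to 9.14 in ligated and from 8.83 through 9.10 to 9.29 in sham hearts on day 1. On day 6 the ligated hearts had 9.28, 9.19, 9.49, 9.43 and 9.52 and the sham hearts ran from 9.14 through 9.68 to 9.85. On day 42 it ran from 8.98 through 9.37 to 9.51 in ligated and from 8.80 through 9.78 to 9.93 in sham hearts, where all 6 ligated hearts lay below the sham median but within the sham range. The differences were -0.17 ± 0.10, -0.20 ± 0.15 and -0.30 ± 0.19 (SE), with adjusted p of 0.213, 0.407 and 0.276. Within day 6 the means at positions A to F were 9.235 (n = 2) in ligated and 9.341 (n = 3) in sham hearts. At G to L they were 9.48 and 9.818 (n = 3 each), so sham hearts alone differed by position. On day 42 the sham range was set by replicate 5, the lowest sham heart for 6 of the 8 genes. Without it the difference was -0.45 (adjusted p = 0.0460). Median scaling turned the day 1 value to 0.08 and took the day 42 value to -0.82 (adjusted p = 0.00973), and brightness as a covariate gave 0.16 on day 42 (adjusted p = 0.899).

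Hand2, the basic helix-loop-helix factor, was dim, and its difference did not have the same sign on every day. On day 1 it was detected in 6 of 6 ligated and 3 of 6 sham hearts, and its values ran from 6.24 through 6.48 to 6.69 and from 5.81 through 6.10 to 6.62. The difference was 0.32 ± 0.14 (SE, adjusted p = 0.106). On day 6 it was detected in 3 of 5 and 3 of 6 hearts. Ligated values of 6.38, 6.15, 5.82, 6.04 and 6.20 lay inside the sham range of 5.53 to 6.87, and the difference was -0.03 ± 0.23 (adjusted p = 0.945). The position sets gave opposite signs: at A to F the means were 6.265 (n = 2) in ligated and 5.69 (n = 3) in sham hearts. At G to L they were 6.022 and 6.615 (n = 3 each). Among sham hearts alone the highest at A to F was 5.984 and the lowest at G to L was 6.419. On day 42 all ligated samples lay at A to F and all sham samples at G to L, so position and operation cannot be told apart there. On day 42 Hand2 was detected in 4 of 6 ligated and 6 of 6 sham hearts. Levels then ran from 5.48 through 6.47 to 7.34 in ligated and from 6.48 through 7.05 to 7.74 in sham hearts, and 3 ligated hearts lay below every sham heart. That difference was the largest on the lower side among the genes, -0.70 ± 0.27 (SE, 95% interval -1.28 to -0.12), with an adjusted p of 0.0908. It passed in 5 of 22 other settings: median scaling (-1.04, adjusted p = 0.00654), array weights (-0.83, adjusted p = 0.0245), a spread shared by all groups (adjusted p = 0.0339), a replicate block (adjusted p = 0.0133) and without ligated replicate 1, the highest ligated heart (-0.88, adjusted p = 0.0221). Brightness as a covariate turned it to 0.24 (adjusted p = 0.878).

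The effect of ligation on Hand2 was lower on day 42 than on day 1 by a test of the difference, -1.01 ± 0.33 (SE, 95% interval -1.69 to -0.34, adjusted p = 0.0497), against 8.62% of probes. This call passed in 19 of 46 other settings, with adjusted p from 0.0049 to 0.823. Leaving out sham replicate 1 of day 42 gave -0.88 (adjusted p = 0.0962). Brightness as a covariate gave -0.55 (adjusted p = 0.823). The ligated hearts of day 42, where brightness was lower, were also those in which Hand2 was detected less often. The parts of brightness and of BeadChip position were not tested further.

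Mef2d, the MEF2 member with a probe among the genes described here, lay near background throughout. It was detected in 1 of 6 ligated and 0 of 6 sham hearts on day 1 and was not tested there. On day 6 it was detected in 3 of 5 and 4 of 6 hearts, with ligated values of 6.01, 5.52, 5.41, 6.21 and 6.46 against a sham range of 5.41 to 6.57. The difference was -0.13 ± 0.23 (SE, adjusted p = 0.751). On day 42 it was detected in 1 of 6 ligated and 5 of 6 sham hearts, with values from 5.33 through 5.88 to 6.17 and from 5.37 through 6.29 to 6.41. The difference was -0.30 ± 0.19 (SE, adjusted p = 0.269), and the sham heart at 5.37 was replicate 5 again. Median scaling gave -0.53 (adjusted p = 0.0372) and brightness as a covariate 0.27 (adjusted p = 0.791).

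The genes varied together only weakly from heart to heart. After the mean of each group was removed, the 28 pairs of genes had correlations from -0.0953 to 0.729 over the 35 arrays, with a median of 0.194. Gata4 with Nkx2-5 stood at 0.729 and Mef2d with Nkx2-5 at 0.557, and no other pair exceeded 0.5. These values share arrays, RNA samples and normalisation, and they are given as a description without a test.

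The genes most like Rcan1, by correlation over the 35 arrays after the mean of each day was removed and among 5869 genes tested on all days, were Cnksr3 (r = 0.817), Filip1 (0.801), Cspg4 (0.791), Tgm2 (0.753) and Atrn (0.751). Cspg4 encodes a proteoglycan of pericytes, and it was higher in ligated hearts by 0.55, 0.56 and 0.79 on days 1, 6 and 42 (adjusted p = 0.0264, 0.0413 and 0.00749). Tgm2, a protein cross-linking enzyme, was higher by 0.50, 0.41 and 0.84 (adjusted p = 0.0034, 0.0235 and 0.00238). Filip1 was higher on days 1 and 42, by 0.49 and 0.57. Those most like Myocd were Sox4 (r = 0.846), Pi4k2a (0.843), Zc3h11a (0.836), Usp4 (0.816) and Nfix (0.813). Sox4, an HMG box transcription factor, was higher by 1.19 on day 1 (adjusted p = 0.000654) and by 1.4 on day 42 (adjusted p = 0.00997), and stood at -0.08 on day 6 (adjusted p = 0.922). Pi4k2a and Zc3h11a were called higher on days 1 and 42, Usp4 on day 42 and Nfix on day 1, and Atrn, in the first set, was called on no day. Because the correlation keeps the ligation effect, a like pattern of differences follows from the choice and is given as a description.

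**Figure D4:**
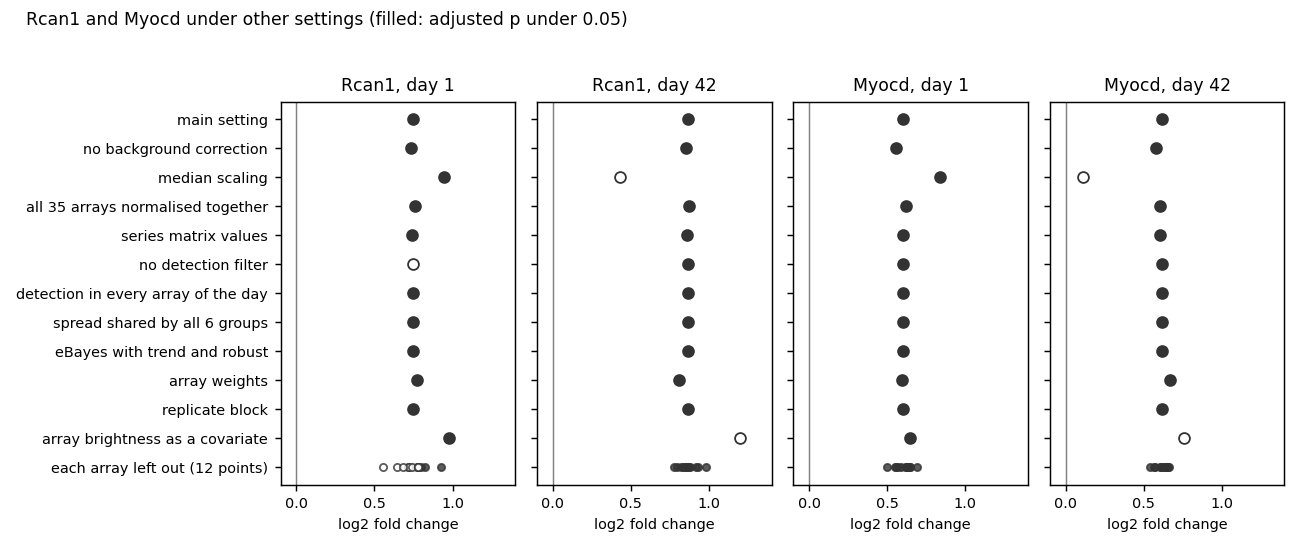
The log2 difference between ligated and sham hearts (horizontal axis) of Rcan1 and Myocd on days 1 and 42 is drawn under each setting, and filled points have an adjusted p under 0.05. All points lie above 0, and the open ones are those of Rcan1 on day 1 without the detection filter or without some single arrays, and of both genes on day 42 under median scaling or with brightness as a covariate.

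Around Rcan1, calls among genes of the calcineurin and NFAT pathway were split between the directions on day 1. Of 24 genes listed, 13 were tested, of which 3 rose and 3 fell, against 13.1% and 15.6% of all probes. The median difference was 0.02 against -0.03 over all probes. Median scaling gave 5 higher and 1 lower, and it moved the median of all probes to 0.20. It called 2042 of 8236 probes, 83.9% of them higher. Gsk3b, a kinase that sends NFAT out of the nucleus, rose by 0.74 (adjusted p = 0.00232). Rcan2, a relative of Rcan1, fell by 0.84 (adjusted p = 0.00503), opposite in sign to Rcan1. Myoz1, a Z-disc protein that binds calcineurin, fell by 0.51 (adjusted p = 0.0152), and was detected in 3 of 6 ligated and 5 of 6 sham hearts. Ppp3cb, the beta catalytic subunit of calcineurin, fell by 0.44 (adjusted p = 0.0257). The last 2 did not pass under median scaling (adjusted p = 0.065 and 0.430).

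On day 6, 1 of 14 genes of the pathway rose and 1 fell, against 5.39% and 5.89% of all probes, with a median of -0.06 against -0.04 over all probes. Cib1, a calcium-binding protein that anchors calcineurin at the membrane, rose by 0.64 (adjusted p = 0.0130), and Nfatc3, an NFAT factor, fell by 0.42 (adjusted p = 0.0406). Under median scaling these were 0.55 (adjusted p = 0.409) and -0.40 (adjusted p = 0.464). On day 42, 3 of 14 rose and 0 fell by limma, against 7.30% and 7.69% of all probes, with a median of 0.21 against -0.01. Gsk3b rose by 0.73 (adjusted p = 0.00351), Cib1 by 0.32 (adjusted p = 0.0365) and Cabin1, an inhibitor of calcineurin, by 0.52 (adjusted p = 0.0467). Under median scaling none of these day 42 calls held, and 0 of the 14 rose and 2 fell. That setting called 4710 of 8351 probes on day 42, 1.72% of them higher. The catalytic subunit Ppp3ca and the factor Nfatc4 were tested and called on no day.

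Of 12 relatives and cofactors of the factors tested on each day, 1 rose and 2 fell on day 1, 0 rose and 3 fell on day 6, and 0 rose and 2 fell on day 42. The shares of all probes called lower were 15.6%, 5.89% and 7.69%, and with 12 genes nothing is read from the counts. The medians were -0.23, -0.36 and -0.19, each lower than that of all probes. Fhl2, a LIM protein that binds SRF, fell by 0.96 on day 1 (adjusted p = 0.00518), with all 6 ligated hearts below all sham hearts. Mrtfa, the other kind of SRF coactivator, rose by 0.34 that day (adjusted p = 0.00559), and Gata5, the third GATA factor of the heart, fell by 0.48 (adjusted p = 0.0196). Zfpm2, a partner of GATA4 also called FOG2, fell by 0.69 on day 6 (adjusted p = 0.00532) and by 0.83 on day 42 (adjusted p = 0.0292). On day 6 the iroquois factor Irx3 fell by 0.61 (adjusted p = 0.0203) and Smyd1, a muscle methyltransferase, by 0.38 (adjusted p = 0.0413). Cited2, which competes for the coactivators CBP and p300, fell by 0.95 on day 42 (adjusted p = 0.00664). Under median scaling Gata5 on day 1 was -0.23 (adjusted p = 0.168). On day 6 that setting kept the sizes, at -0.73 for Zfpm2, -0.60 for Irx3 and -0.49 for Smyd1, but not the calls (adjusted p = 0.190, 0.281 and 0.402). On day 42 it gave 7 of 12 lower, while 4710 of all 8351 probes were called and 1.72% of those were higher.

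Among kinases and deacetylases that act on MEF2, 1 of 10 rose and 1 fell on day 1, 0 rose and 1 of 10 fell on day 6, and 1 of 11 rose and 0 fell on day 42, by limma. The shares of all probes called on these days were 28.8%, 11.3% and 15.0%. Median scaling gave 3 higher and 0 lower on day 1, 0 and 0 on day 6, and 0 higher and 3 lower on day 42. It called 2042 of 8236, 132 of 8492 and 4710 of 8351 probes on these days. Of those calls 83.9, 37.9 and 1.72% were higher. On day 1 Hdac4, a deacetylase that represses MEF2, rose by 0.34 (adjusted p = 0.0280), and Prkd2, a kinase of such deacetylases, fell by 0.37 (adjusted p = 0.0429). The gene called on day 6 was Camk2d, the main cardiac CaM kinase, which fell by 0.49 (adjusted p = 0.0237). The gene called on day 42 was again Hdac4, which rose by 0.74 (adjusted p = 0.00427) with no overlap of the groups. Under median scaling the Hdac4 value of day 42 was 0.24 (adjusted p = 0.183).

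Of 22 cardiomyocyte genes known as targets of these factors, 4 rose and 3 fell on day 1, 4 rose and 0 fell on day 6, and 3 rose and 2 fell on day 42. The shares of all probes called higher were 13.1%, 5.39% and 7.30%. The medians lay near 0, at 0.01, -0.02 and 0.08. Median scaling gave 6 higher and 2 lower, 1 and 0, and 5 and 5, and brightness as a covariate gave 1 and 2 on day 1, 4 and 2 on day 6, and 0 and 0 on day 42. Of the 8236, 8492 and 8351 probes tested on these days, median scaling called 2042, 132 and 4710. Brightness as a covariate called 1199, 1414 and 3 of them. Nppa, the atrial natriuretic peptide gene, rose on every day, by 1.39 (adjusted p = 0.0189), 2.86 (adjusted p = 2.64e-05) and 3.10 (adjusted p = 0.00946). With brightness as a covariate its day 1 value was 0.88 (adjusted p = 0.125). Skeletal actin, Acta1, rose by 0.81 on day 6 (adjusted p = 0.0190) and by 1.36 on day 42 (adjusted p = 0.00469), and the day 6 value was 0.78 (adjusted p = 0.108) under median scaling. Nppb, the brain natriuretic peptide gene, rose by 0.74 on day 6 (adjusted p = 0.0168) and by 1.31 on day 42 (adjusted p = 0.0140). Des, which encodes the intermediate filament desmin, rose by 0.44 on day 6 (adjusted p = 0.0201), and Ckm, the muscle creatine kinase gene, fell by 0.46 on day 42 (adjusted p = 0.0226). The day 6 calls of Nppb and Des were lost under median scaling (0.64 and 0.26, adjusted p = 0.222 and 0.649). On day 1 the adenosine receptor gene Adora1 fell by 0.81 (adjusted p = 0.00424). It was detected in 3 of 6 ligated and 6 of 6 sham hearts, so that size is uncertain. Corin, the protease that processes the atrial peptide, fell by 0.89 that day (adjusted p = 0.00232), while Ankrd1, a stress-induced ankyrin repeat protein, rose by 0.30 (adjusted p = 0.0205).

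Among SRF targets most calls were on the higher side. On day 1, 10 of 16 rose and 1 fell, on day 6, 8 of 16 rose and 0 fell, and on day 42, 3 of 15 rose and 0 fell. The shares of all probes called higher were 13.1%, 5.39% and 7.30%. The medians were 0.47, 0.60 and 0.43, against -0.03, -0.04 and -0.01 over all probes. Median scaling left a positive median on days 1 and 6 (0.68 and 0.57) with 12 and 1 genes called higher, and turned that of day 42 to -0.05 with 2 higher and 3 lower, above the -0.47 of all probes in that setting. With brightness as a covariate 7, 9 and 0 were called higher. Of the 8236, 8492 and 8351 probes tested on days 1, 6 and 42, that setting called 545, 669 and 3 higher. Median scaling called 1714, 50 and 81 higher, and 4710 in either direction on day 42. Ccn1 and Ccn2, matricellular proteins, rose by 1.19 and 1.42 on day 1 (adjusted p = 0.00260 and 0.00381), and Ccn2 rose by 1.12 on day 6 (adjusted p = 0.00740) and by 1.52 on day 42 (adjusted p = 0.0111). Actg2, a smooth muscle actin, rose by 1.58 on day 6 (adjusted p = 0.00328), and Csrp1, a LIM protein of smooth muscle, by 0.62 (adjusted p = 0.0127). Flna, an actin cross-linker, rose by 0.73 on day 1 (adjusted p = 0.00300). Egr1 and Egr2, immediate early factors, rose by 0.99 and 0.61 on day 42 (adjusted p = 0.00750 and 0.0121), and Egr2 was at 0.084 under median scaling (adjusted p = 0.680). Fos was detected in 5 of 6 ligated and 0 of 6 sham hearts on day 1 and was at least 1.65-fold higher. It passed the detection filter through ligated arrays alone. Its call, counted among the 10 of day 1, therefore gives no separate support.

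The rise of SRF targets on day 6 came with rises in some markers of other cells. On that day 3 of 4 macrophage markers tested rose, with C1qb higher by 1.38 (adjusted p = 0.0191), C1qa by 1.11 (adjusted p = 0.0201) and Cd163 by 1.67 (adjusted p = 0.0365). Of all probes, 5.39% were called higher and 5.89% lower on day 6. Cd163 was detected in 5 of 5 ligated and 2 of 6 sham hearts, so its size is uncertain. The summed level of the 4 markers on the linear scale ran from 2279 to 8724 in ligated and from 1673 to 2447 in sham hearts. Among 6 fibroblast markers only Col1a1 rose (1.09, adjusted p = 0.0216), with sums from 44010 to 82250 and from 41070 to 59970. Under median scaling the values were 1.28 for C1qb, 1.04 for C1qa, 1.64 for Cd163 and 0.98 for Col1a1, with adjusted p from 0.144 to 0.190. On days 1 and 42 none of the macrophage and fibroblast markers tested was called, but under median scaling 5 of 6 fibroblast markers were lower on day 42, with a median of -0.56 against -0.47 over all probes. In that setting 4710 of 8351 probes were called, 1.72% of them higher. Endothelial markers gave Vwf higher by 0.40 (adjusted p = 0.0231) and Emcn lower by 0.39 (adjusted p = 0.0343) on day 1, none on day 6 and Tek lower by 0.78 (adjusted p = 0.0258) on day 42. The erythroid marker Alas2 fell by 0.45 on day 1 (adjusted p = 0.0464). The shares of all probes were 13.1% higher and 15.6% lower on day 1, and 7.30% and 7.69% on day 42. Of the atrial markers, Nppa alone was called on each day, and Bmp10, which is specific to the atrium, was detected on no array. Myl7, the other atrial marker tested, was detected on every array and varied widely between hearts. Its differences were -0.91 ± 0.68, -0.85 ± 0.99 and 0.75 ± 0.90 (SE) on days 1, 6 and 42 (adjusted p = 0.335, 0.607 and 0.589). The part of these cell types in the gene values was not tested.

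**Figure D5:**
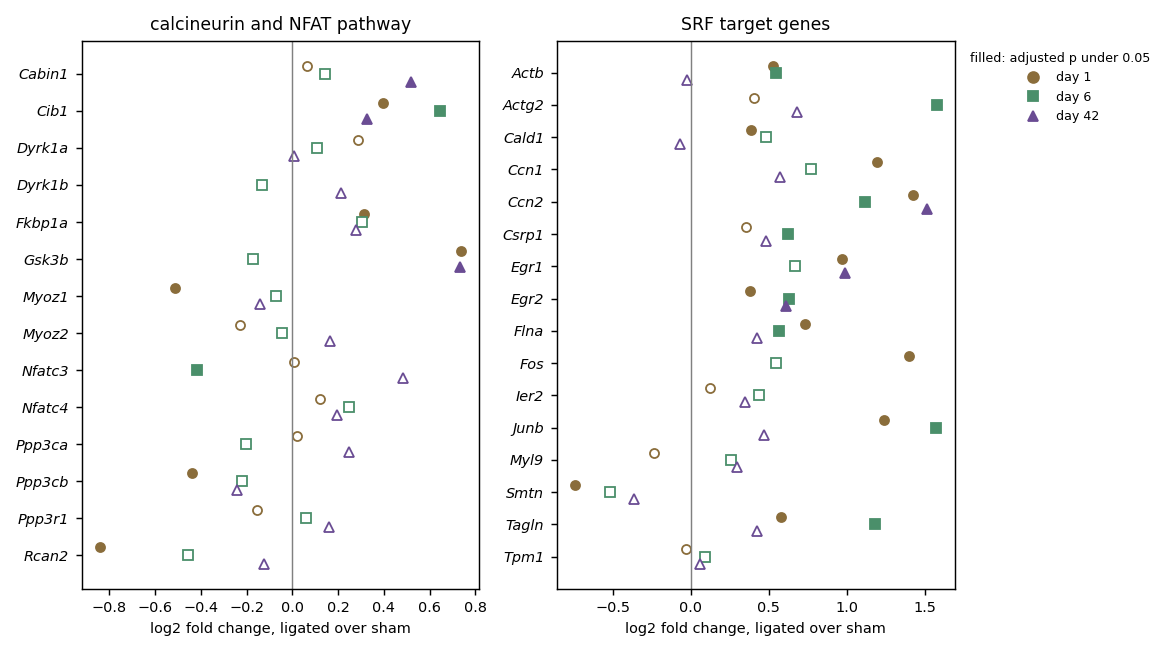
The log2 difference between ligated and sham hearts (horizontal axis) is drawn for each tested gene of the calcineurin and NFAT list and of the SRF target list on days 1, 6 and 42, and filled symbols have an adjusted p under 0.05. Symbols lie on both sides of 0 in the first list, while most lie above 0 in the second, where the Fos symbol of day 1 is the fitted value of a gene detected in 0 of 6 sham hearts.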

How the data were processed

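RNA of the left ventricle was labelled and hybridised to Illumina BeadChips. The authors deposited, per the file headers, the mean intensity of each probe over its beads, neither background-subtracted nor normalised, with a detection p-value and the number of beads. BeadStudio 3.3 and GenomeStudio are named, without roles, in the submitters' processing notes. A second deposited table holds the same arrays' processed intensity values. It ranks the probes of each array as the raw values do, its columns share 1 median within a day (15.68, 25.51 and 21.4 on days 1, 6 and 42), its method is not given in the sources used here, and it served as an alternative.

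Background was removed from the raw intensities with limma's normexp model (limma 3.58.1, R 4.3.3), whose negative controls were inferred from detection p-values, with an offset of 16. The arrays of each day were then quantile-normalised, and log2 was taken. Probes with detection p under 0.01 on at least 5 arrays of a day were tested in that day's 2 groups with lmFit and eBayes, and p-values were adjusted by Benjamini-Hochberg over all of them: 8236, 8492 and 8351 probes. Effects were compared between days in a joint model with a mean for each of the 6 groups, over 8986 probes. Brightness was compared by exact permutation. The number of animals limits the precision. In data simulated for day 6, differences of 0.5, 1 and 2 on the log2 scale were recovered in 27.3, 86.6 and 98.5% of changed probes. For day 1 the shares were 50, 97 and 97%, and for day 42 they were 37.9, 91 and 100%. Each size was set in 66 or 67 probes, while 2368, 958 and 1252 probes were called in the data. The adjusted threshold depends on how many probes change, so these shares hold for the simulated setting only.

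Of 22523 probes, 13793 had a gene symbol and 8730 had none, and no probe had several. For a listed gene with several probes the brightest stands for the gene. From each pathway list up to 4 called genes a day are named, those with the smallest p, and up to 3 from each marker list. Nfatc4 and Ppp3ca were named after their values were seen. The genes and lists were chosen with earlier results of these data known. On day 6, 1 array (4 columns) matched no sample and was not used. Same-numbered ligated and sham arrays correlated from -0.269 to 0.341 in their deviations. These values cannot settle whether the numbers pair the arrays, and the labels do not say. The main test treated the groups as unpaired. The alternatives were other background corrections, scalings, filters and error models, a replicate block, brightness and position terms, and each array left out.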

Additional observations from a re-analysis of the deposited data

Results flagged for a closer look

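Of 48 groups of values, 8 genes in 6 groups, 1 held an array far from its others: Mef2d in sham replicate 5 of day 42 stood at 5.37, and the other 5 sham hearts ran from 6.03 to 6.41. Chance alone gives about 1 such array in 20 groups. The ligation effect on Myocd fell by 1.10 from day 1 to day 6 and differed by 1.11 from day 6 to day 42, both by a test of the difference between days. The ligation effect on Hand2 differed by -1.01 from day 1 to day 42, also by a test of the difference. No cause was tested for any of these.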

How the results depend on the processing

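Median scaling left 132 probes called on day 6 and 4710 on day 42, with 37.9% and 1.72% of them higher, against 83.9% of its calls on day 1 and 45.7, 47.8 and 48.7% in the main setting. Under it the median probe stood at 0.202, -0.0842 and -0.47. Between days 6 and 42 it left 0 genes of the group with a called difference of effects, and between days 1 and 42 it gave 4. It turned Nkx2-5 on day 1 to 0.084, and on day 42 Gata4 to -0.41, Gata6 to -0.31 and Srf to -0.37. It turned the Gata6 differences between days to -0.046, -0.11 and -0.16, and those from day 1 to day 42 to -0.73 for Myocd (adjusted p = 0.0199) and -0.51 for Rcan1. Normalising all 35 arrays together turned the Myocd difference from day 1 to day 42 to -0.013. The processed table gave 0 genes for the differences from day 1 to days 6 and 42 and turned Hand2 on day 6 to 0.020. Without a detection filter 1 gene was called on day 1, 562 probes were called on day 6, and 0 genes differed from day 1 to days 6 and 42. Detection on every array left 0 for days 1 to 42, since Hand2 was not tested there. A shared spread gave 1634 probes on day 6. Array weights gave 2106 probes on day 42, 2 genes for days 1 to 42 and 0.14 for Gata6 on day 6. The replicate block gave 315 probes on day 6, 0 genes for days 1 to 6 and 0.047 for Hand2 on day 6. With that block Hand2 on day 42 passed (adjusted p = 0.0133), and the Myocd difference from day 1 to day 6 did not (adjusted p = 0.087), with no other call of these genes changed. Brightness as a covariate left 1199 probes on day 1 and 3 on day 42, with 0 of the genes on day 42 and 0 for the differences from day 6 and from day 1 to day 42. It turned Mef2d, Nkx2-5 and Hand2 on day 42 to 0.27, 0.16 and 0.24, Gata6 from day 6 to 42 to -0.037 and Myocd from day 1 to 42 to -0.48. The median intensity in place of the 75th percentile gave a ligated minus sham difference of -0.07 on day 6 (exact p = 0.991). Within positions A to F, chosen after the data were seen, Hand2 on day 6 was 0.57 and the day 1 to 6 differences of Gata6 and Hand2 were -0.45 and 0.26. Within G to L, Gata6 and Myocd on day 6 were 0.35 and 0.075 and Gata6 from day 6 to 42 was -0.12. A block for position on day 6 changed no call of these genes. With each array left out in turn, 1576 to 2934 probes were called on day 1, 524 to 1189 on day 6 and 676 to 1772 on day 42. The genes called were 1 to 3, 0 to 1 and 2 to 3, and those with different effects 0 to 1 (days 1 to 6), 1 to 1 (days 6 to 42) and 0 to 2 (days 1 to 42). The Myocd call for days 1 to 6 was lost without day 1 ligated replicates 1 to 5 or sham replicates 1, 2, 3, 5 and 6, day 6 ligated replicates 1 to 4 or sham replicates 2, 3 and 6, and day 42 ligated replicates 2, 5 and 6, each in turn (-1.29 to -0.93 over all arrays). The Hand2 call for days 1 to 42 was kept without day 1 ligated replicate 6 or sham replicate 5, day 6 ligated replicates 1 to 3 or sham replicates 1, 3 and 5, and day 42 ligated replicates 1 and 2 or sham replicate 5, and was lost without each other array. The counts of probes moved by over 1.5 times without ligated replicate 4 of day 1, without ligated replicates 2 and 5 or sham replicates 1, 2, 4, 5 and 6 of day 6, and without ligated replicates 3 and 5 or sham replicates 1 to 4 of day 42. Rcan1 on day 1 ran from 0.55 to 0.92 and Gata6 on day 1 from -0.47 to -0.30, while Myocd ran from 0.50 to 0.69 on day 1 and from 0.54 to 0.66 on day 42, and Rcan1 on day 42 from 0.78 to 0.98. Signs turned on leaving out 1 array for Gata6 (-0.32 to 0.089), Mef2d (-0.27 to 0.0027) and Hand2 (-0.16 to 0.11) on day 6, and for the day 1 to 42 differences of Myocd (-0.077 to 0.12) and Rcan1 (-0.060 to 0.31). Mef2d and Hand2 lie near background, which limits what these arrays can show of them. The cause of these changes was not tested.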
